A study of Mus musculus with 32 samples.

Results

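The nuclear-encoded subunits of the mitochondrial respiratory chain were followed in denervated mouse muscle. They were picked by gene symbol from the protein-coding genes of the deposited expression table, by the name families Nduf (complex I), Sdh (complex II), Uqcr and Cyc1 (complex III), Cox4 to Cox8 (complex IV) and Cycs (cytochrome c). The rule used names only and left assembly factors out. It read no measured value, although it was set with earlier results of these data known. It found 68 genes among 18220 protein-coding genes and 33397 genes in all, namely 38 for complex I, 4 for complex II, 9 for complex III, 16 for complex IV and Cycs itself. RNA was sequenced from the gastrocnemius (GAS) muscle, the large calf muscle, of C57BL/6 mice. There were 8 groups of 4 samples, labelled 0, 1, 3, 5, 7, 14, 21 and 28 d after transection of the sciatic nerve, which carries the motor supply of the calf. The labels list the transection for the 0 d group too, whereas the study's text calls its reference sham and not denervated. Which of these the 0 d muscles were could not be settled here, so every fold change is against muscle labelled 0 d. The table's columns of this group carry no day, and they were taken as 0 d because all other columns name another day. According to the methods, the mice were males of 6 to 8 weeks and a short piece of the nerve was taken out on the left side. The labels call the samples separate muscles without tying them to animals, so the p-values measure the spread between these samples.

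The respiratory chain sits in the inner mitochondrial membrane and passes electrons from NADH (through complex I) or succinate (through complex II) to ubiquinone, then through complex III and cytochrome c to complex IV, which hands them to oxygen. Complexes I, III and IV pump protons, and the ATP synthase uses that gradient to make ATP. Most subunits are encoded in the nucleus, whereas the mitochondrial genome encodes core parts of complexes I, III and IV and of the ATP synthase. Skeletal muscle is rich in these subunits and makes tissue-specific isoforms of some complex IV subunits.

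The values are FPKM, that is, fragments scaled to exon length and to the size of the library. Recovered totals ran from 14199898 to 17561590 fragments a sample. The mitochondrial genome took between 14.5% and 18.2% of them at 0 d and between 6.70% and 11.3% at 7 d, and a smaller share there raises the FPKM of all other genes. Fold changes are on the log2(FPKM + 1) scale, and a gene was called at a Benjamini-Hochberg adjusted p under 0.05 in limma with at least 1.5-fold change. All 68 subunits were among the 22071 genes tested. Over all samples, 33 of them averaged an FPKM of at least 100 and 7 averaged under 10. The 10 muscle fibre markers, fast myosins and creatine kinase among them, were detected in every group and summed to between 46487 and 49855 FPKM at 0 d. The labels' extraction text names retinas, but the 6 retina markers found summed to at most 0.266 FPKM in any sample. Sample a of 3 d stood apart from the other 3 samples of that day on the first principal component of all genes, and the main 3 d counts are given with and without it.

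The subunits were lower as a group within days. Respiratory chain subunits took 1.54% ± 0.123 (SD, n = 4) of all fragments at 0 d, 1.21% ± 0.0753 at 1 d and 0.966% ± 0.0851 at 3 d. The share was still 1.07% ± 0.0585 at 28 d, and the samples of 3 d and of 28 d were all below those of 0 d. At 3 d, 45 of the 68 subunits fell and none rose by the limma call, against 6.03% of all genes tested that fell and 13.2% that rose. Such shares include genes of low level, whose fold changes are compressed by the 1 added to FPKM. Of the 22071 genes, 11943 averaged an FPKM of at least 1. With 0.1 added instead, 10.6% of all genes fell and 20.4% rose at 3 d. At an unadjusted p under 0.05 a single subunit was higher at 3 d, and a voom fit of recovered fragments called none. Without sample a of 3 d, 47 subunits fell and 1 rose.

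At 1 d the call found 2 lower subunits, Cox7a1 and Ndufc2 (an accessory subunit of complex I), beside 2.49% of all genes. This count ranged from 1 to 5 when single samples were left out. No subunit rose, beside 6.34% of all genes. The adjusted p alone, with no fold threshold, found 54 lower and none higher at 1 d, so as deposited the early differences were below 1.5-fold for most subunits. At 5 d the call gave 40 lower and 1 higher subunit (3.86% and 14.9% of all genes), at 7 d 26 lower and none higher (4.1% and 15.4%) and at 14 d 20 lower and none higher (3.83% and 14.6%). At 21 d there were 14 lower subunits and 1 higher one (3.93% and 11.8%), and at 28 d 20 lower and 1 higher (4.1% and 14.2%). The single higher subunit at 5, 21 and 28 d was Cox8a. For the days with none higher, an unadjusted p under 0.05 gave 0 higher subunits at 1 d, 3 at 7 d and 5 at 14 d, and the voom fit called 0, 0 and 1.

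With no fold threshold, 54, 59, 60, 56, 52, 47 and 50 subunits were lower on the 7 days from 1 to 28 d, beside 9.01%, 14.3%, 9.52%, 10.1%, 9.25%, 10.1% and 9.85% of all genes. Higher on these days were 0, 1, 3, 3, 5, 4 and 4, beside 20.4%, 29%, 36.1%, 37.1%, 38%, 31.7% and 37.8%. Most subunits were thus below 0 d by this looser criterion throughout the course, although fewer of them passed the fold threshold after 5 d. Without sample a of 3 d, 60 were lower and 1 higher at that day, beside 12.8% and 33.1% of all genes.

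**Figure D1:**
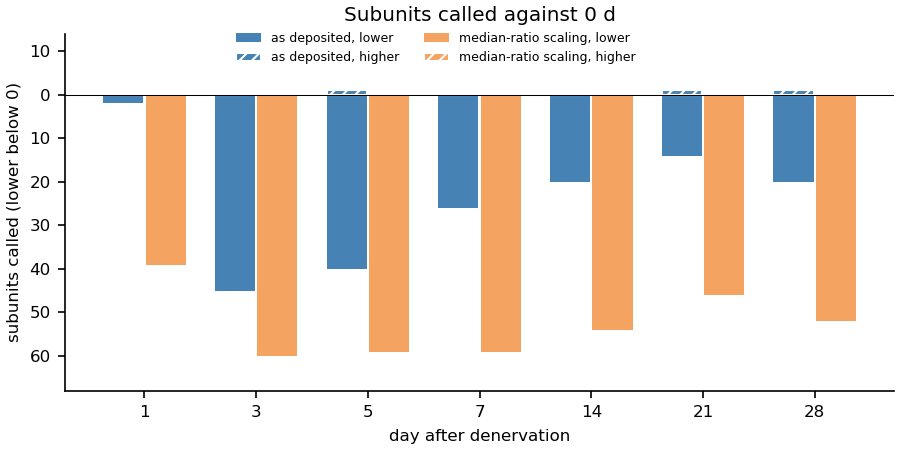
Number of the 68 subunits called lower (below the line) or higher (above it) than at 0 d, by day on the horizontal axis, with the values as deposited in blue and after median-ratio scaling in orange. As deposited, lower calls peaked at 45 on 3 d and stood at 20 on 28 d, while after scaling they stayed between 39 and 60 and no subunit was called higher.

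The size of this decrease depended on how samples were scaled to each other. Among genes that averaged an FPKM of 1 or more, the median log2 fold change against 0 d was 0.12, 0.20, 0.32 and 0.30 on 1, 3, 7 and 28 d in the values as deposited. Median-ratio scaling, which centres the typical gene, brought it to between -0.04 and 0.02. After that scaling 39, 60, 59, 59, 54, 46 and 52 subunits fell at 1, 3, 5, 7, 14, 21 and 28 d, and none rose. The shares of all genes called lower were then 5.06%, 9.79%, 7.83%, 8.14%, 7.57%, 7.3% and 8.03%, and those called higher were 3.93%, 8.31%, 6.6%, 7.03%, 6.6%, 6.41% and 6.75%. Without sample a of 3 d, 60 subunits fell and none rose at 3 d after that scaling, beside 9.9% and 8.56% of all genes. The median subunit changed by -0.70 at 3 d and by -0.46 at 28 d as deposited, and by -0.97 and -0.82 after scaling, beside 0.06 and 0.14 for all genes tested as deposited.

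Single subunits ran below the reference without overlap in most cases. All 4 samples lay below all 4 of 0 d for 40, 55, 57, 49, 44, 38 and 45 subunits on the 7 days in turn. The shares of all tested genes with that pattern were 8.6%, 12.3%, 8.93%, 8.47%, 8.13%, 9.99% and 9.06%. Without sample a, 59 lay below at 3 d, beside 13.2% of all genes. As deposited the lowest mean was at 3 d for 40 of the 68 subunits, at 5 d for 9 and at 7 d for 7, whereas after median-ratio scaling these counts were 21, 25 and 8. As deposited, 11 subunits fell on each of the 6 days from 3 d on, and these were Sdha, Sdhb, Sdhd, Cyc1, Cycs, Ndufs7, Ndufa8, Cox5a, Cox7a1, Cox8b and Cox4i2. A further 17 subunits fell on none of these days. Of all genes tested, 2.28% fell on each of the 6 days and 92.2% on none. After median-ratio scaling 44 subunits fell on each of the 6 days and 6 on none of them, beside 4.42% and 86.5% of all genes. All comparisons with 0 d share the same 4 reference samples.

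**Figure D2:**
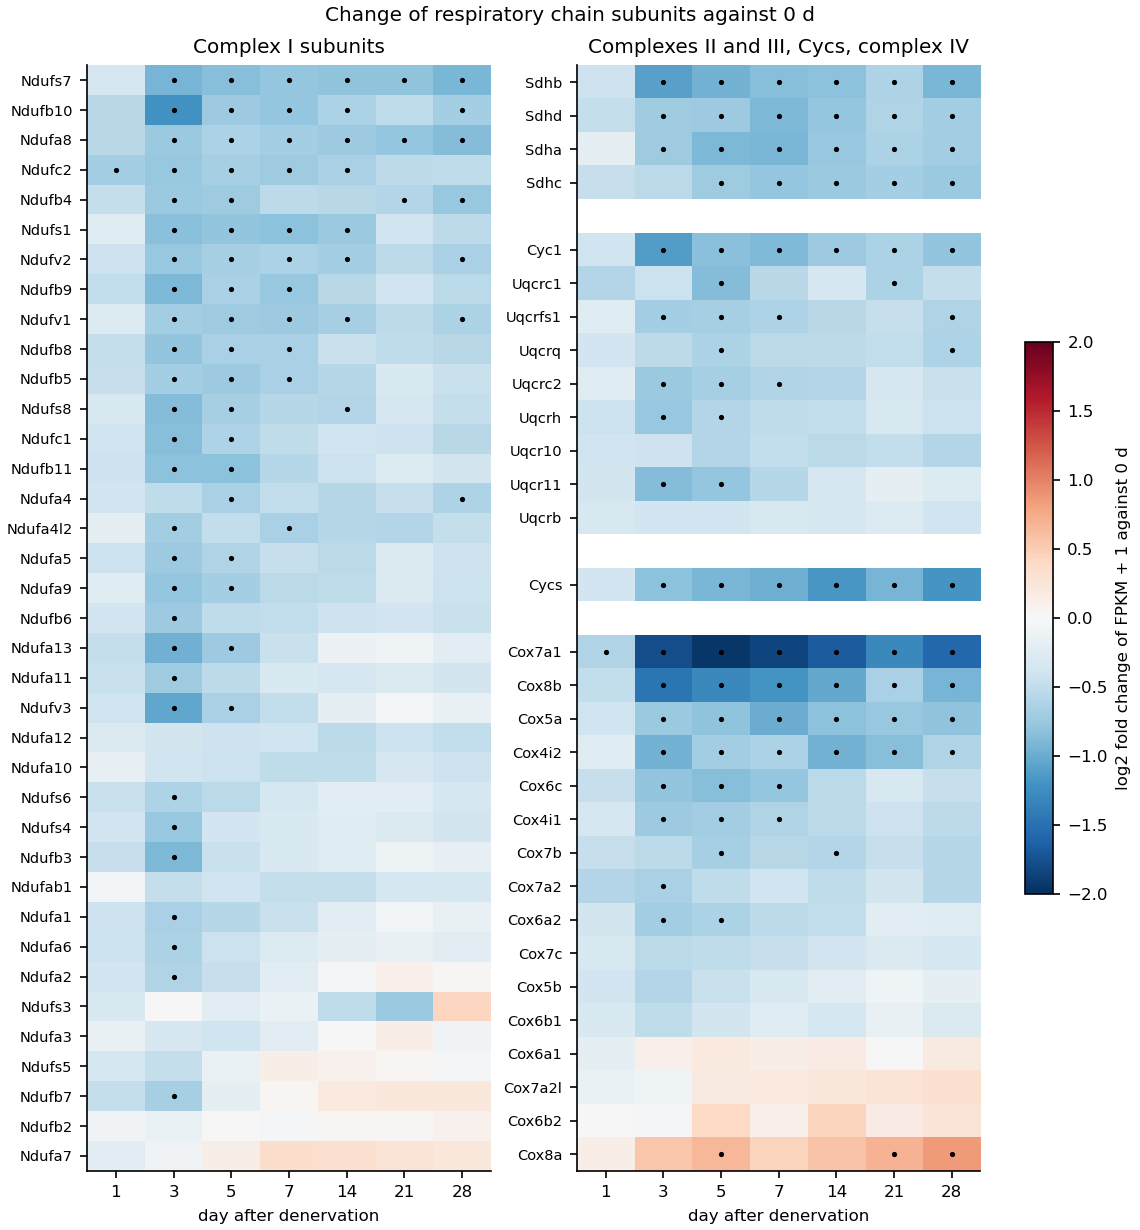
Log2 fold change of FPKM + 1 against 0 d for the subunits reported by name (vertical axis, sorted by their mean change within a complex) at each day (horizontal axis), with blue for lower, red for higher and a dot where the gene was called. Blue fills most of the grid, the darkest cells are Cox7a1 and Cox8b, and the red rows at the bottom of complex IV end with Cox8a.

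Other cell types and fibre types moved over the same days. The summed FPKM of the 10 muscle fibre markers was between 27128 and 31258 at 3 d and between 30510 and 33833 at 28 d, below every 0 d sample, and 6 of the 10 fell at each of these days while 0 and 3 rose. The 7 slow fibre markers, such as the slow myosin heavy chain, summed to between 433 and 1209 at 0 d, between 98.0 and 245 at 3 d and between 1322 and 2316 at 28 d, and 5 of the 7 fell at 3 d while 6 rose at 28 d. The 7 macrophage markers summed to between 119 and 172 at 0 d, between 259 and 863 at 3 d and between 379 and 456 at 28 d, and 6 of the 7 rose at both days. The 6 fibroblast markers summed to between 433 and 573 at 0 d, between 258 and 681 at 3 d and between 546 and 732 at 28 d, and overlapped. None of the 6 was called at 3 d and 1 (Lum, 1.17 ± 0.26) rose at 28 d. The 5 Schwann cell markers summed to between 126 and 268 at 0 d, between 20.1 and 52.8 at 3 d and between 33.6 and 49.5 at 28 d, below 0 d at both days, and 3 of the 5 fell at each of them while 0 and 1 rose. The 5 endothelial markers summed to between 81.5 and 93.1 at 0 d, between 47.4 and 66.4 at 3 d and between 55.3 and 65.9 at 28 d, without overlap with 0 d, and 3 and 1 of the 5 fell at 3 and 28 d. The 4 satellite cell markers summed to between 2.73 and 3.23 at 0 d, between 2.34 and 3.46 at 3 d and between 4.54 and 6.35 at 28 d, where 1 of the 4 rose. The 3 brown adipocyte markers stayed low, at between 0.575 and 1.05 at 0 d, but were between 1.58 and 3.33 at 3 d and between 2.76 and 4.25 at 28 d, and of the 2 in the fit 1 (Cidea) rose at both days. The 6 adipocyte markers summed to between 93.6 and 161 at 0 d and between 67.3 and 155 at 3 d. At 28 d they summed to between 92.3 and 197, and both days overlapped 0 d. Only Plin1 (-1.31 ± 0.44) and Retn (-1.43 ± 0.38) among them were called, both lower at 3 d. The 5 erythrocyte markers overlapped 0 d at both days and none was called. Among all genes tested, 6.03% fell and 13.2% rose at 3 d, and 4.1% and 14.2% at 28 d. No marker in these lists was at 0 in all samples. In whole muscle, fewer fibres and less subunit RNA per fibre cannot be told apart, and the part of these cell types in the subunit values was not tested.

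The complexes had similar medians at 3 d and were further apart later. The medians of complexes I, III and IV were lowest at 3 d as deposited, at -0.71, -0.67 and -0.61, and stood at -0.42, -0.48 and -0.40 at 28 d. Complex II, which oxidises succinate and also belongs to the tricarboxylic acid cycle, was at -0.71 at 3 d, -0.87 at 7 d and -0.72 at 28 d. Cycs, the mobile carrier between complexes III and IV, was at -0.82, -0.97 and -1.18 on the same days. Called lower at 3 d and at 28 d were 28 and 8 of 38 complex I subunits, 3 and 4 of 4 in complex II, 5 and 3 of 9 in complex III and 8 and 4 of 16 in complex IV. Without sample a the 3 d counts were 28, 3, 5 and 10. After median-ratio scaling these counts were 34 and 27 in complex I, 4 and 4 in complex II, 9 and 9 in complex III and 12 and 11 in complex IV. The scaled medians of complexes I, III and IV were -0.98, -0.95 and -0.89 at 3 d and -0.80, -0.84 and -0.78 at 28 d, and that of complex II was -0.98 and -1.09. The differences between complexes were not tested.

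**Figure D3:**
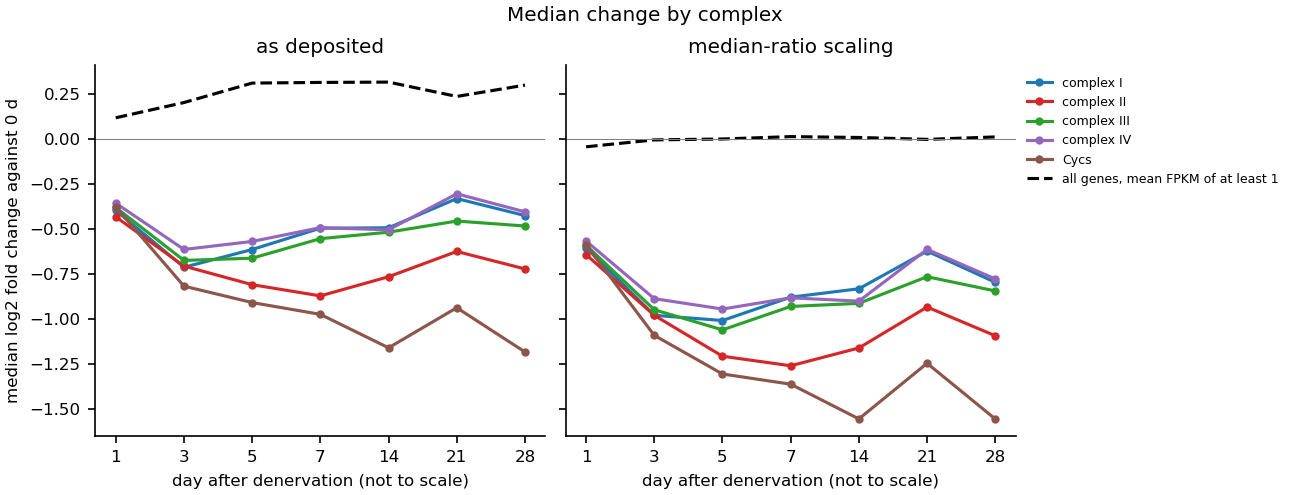
Median log2 fold change against 0 d of the subunits of each complex, by day (the axis is not to scale), with the values as deposited on the left and after median-ratio scaling on the right; the dashed line is the median of all genes that averaged an FPKM of 1 or more. Complexes I, III and IV run together and come up after 3 d as deposited, while complex II is lowest at 7 d and Cycs at 28 d.

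The promoters of 6 subunits are shown here as examples of sequence, and whether such letters go with the change in RNA was not tested. As deposited, Sdha, Sdhd, Cox7a1 and Cox8b fell on each of the 6 days counted above, Ndufb4 on 4 of them and Cox6a1 on none. RefSeq windows of 300 bases around the start (GRCm38.p6) were matched for 54 of the 68 subunits. Those without one in the table included Cox4i1, Cox4i2, Cox6a2, Cox6c, Cyc1, Ndufa2, Ndufa4l2, Ndufb9, Ndufs1, Sdhc, Uqcrb, Uqcrc2 and Uqcrq. The bases from 250 to 31 before the start are printed 5′ to 3′ on the strand of the gene, with matches of the searched letters in capitals. The first 4 hold, in this order, GCGCA, any 1 base and GCGC, which nuclear respiratory factor 1 (NRF-1) is known to bind, and the last 2, the muscle isoforms Cox7a1 and Cox8b, hold none of the searched letters in the printed bases, although Cox8b holds the E-box letters in the rest of its window.
Sdha (chr13:74350271-74350490, minus strand): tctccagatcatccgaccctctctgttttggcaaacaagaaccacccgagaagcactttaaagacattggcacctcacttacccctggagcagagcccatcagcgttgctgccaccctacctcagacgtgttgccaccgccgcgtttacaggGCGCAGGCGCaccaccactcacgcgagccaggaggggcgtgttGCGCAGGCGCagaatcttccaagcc
Sdhd (chr9:50603880-50604099, minus strand): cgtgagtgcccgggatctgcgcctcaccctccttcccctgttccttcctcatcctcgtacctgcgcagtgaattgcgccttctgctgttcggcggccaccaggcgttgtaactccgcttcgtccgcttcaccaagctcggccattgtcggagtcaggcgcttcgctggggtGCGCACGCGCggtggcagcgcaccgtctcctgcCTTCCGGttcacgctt
Ndufb4 (chr16:37654399-37654618, minus strand): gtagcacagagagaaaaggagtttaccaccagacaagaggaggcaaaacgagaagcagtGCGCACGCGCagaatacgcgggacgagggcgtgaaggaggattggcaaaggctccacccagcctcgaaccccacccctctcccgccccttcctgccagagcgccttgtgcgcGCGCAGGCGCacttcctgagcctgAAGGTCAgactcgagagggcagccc
Cox6a1 (chr5:115348989-115349208, minus strand): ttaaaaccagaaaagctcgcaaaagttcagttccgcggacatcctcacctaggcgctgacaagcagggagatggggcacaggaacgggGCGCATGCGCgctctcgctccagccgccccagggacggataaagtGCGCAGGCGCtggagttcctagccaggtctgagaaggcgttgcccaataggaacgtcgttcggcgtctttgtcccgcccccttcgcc
Cox7a1 (chr7:30183921-30184140, plus strand): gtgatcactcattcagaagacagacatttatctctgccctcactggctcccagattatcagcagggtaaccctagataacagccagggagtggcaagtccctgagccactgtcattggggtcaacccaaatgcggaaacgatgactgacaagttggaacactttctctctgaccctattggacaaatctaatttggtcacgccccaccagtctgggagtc
Cox8b (chr7:140900477-140900696, minus strand): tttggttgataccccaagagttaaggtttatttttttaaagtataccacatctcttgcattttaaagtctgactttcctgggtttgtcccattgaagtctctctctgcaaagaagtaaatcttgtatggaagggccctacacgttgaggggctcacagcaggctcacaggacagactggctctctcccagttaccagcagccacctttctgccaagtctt

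The capitals in Sdha are the NRF-1 letters, 98 and 55 bases before the start. Sdhd holds them at 79 bases, followed at 46 bases by CTTCCGG, the reverse complement of CCGGAAG, which GA-binding protein (GABP) is known to bind. Ndufb4 holds them at 191 and 79 bases and AAGGTCA, the letters of the oestrogen-related receptors (ERR), at 55 bases. Cox6a1 holds them at 162 and 117 bases, and the first of these matches reads as the motif on both strands. In the bases not printed, Sdhd also holds the ERR letters and Cox6a1 the GABP letters. Both strands of the whole windows were searched. The NRF-1 letters stood in 11 of 54 subunit windows (20.4%) and in 5.19% of 27025 windows of all genes. The GABP letters also stood in 11 (20.4%), beside 9.93% of all genes, and the ERR letters in 4 (7.41%), beside 5.38%. The MEF2 letters, CTA and TAG with any 4 bases between, stood in 1 (1.85%, beside 4.23%) and the E-box CAGCTG in 5 (9.26%, beside 18.3%). No searched motif overlapped another in these 4 promoters except the matches of Cox6a1 on both strands. A match of letters describes the sequence and is no evidence of binding.

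Complex II was lower in all 4 subunits. Sdha, the flavoprotein that oxidises succinate, had 224, 226, 238 and 217 FPKM at 0 d. It had 148, 145, 128 and 133 at 3 d, 116, 119, 122 and 119 at 7 d, and 142, 140, 140 and 138 at 28 d. No sample from 1 d on reached the lowest of 0 d. Against 0 d it changed by -0.92 ± 0.04 (SE) at 7 d (limma adjusted p = 1.69e-16), the smallest standard error of the named subunits. Sdhb, the iron-sulphur subunit, had 198, 199, 168 and 160 FPKM at 0 d and 88.1, 91.2, 75.9 and 84.1 at 3 d, a change of -1.08 ± 0.10 (adjusted p = 2.07e-10). At 28 d it had 95.2, 83.5, 105 and 98.5 FPKM, again without overlap. Sdhc and Sdhd, the membrane anchors, stood at 68.1% and 61.3% of their 0 d means at 3 d and at 59.1% and 61.2% at 28 d. Sdhc missed the fold threshold at 3 d, with -0.54 ± 0.06, and all 4 subunits fell on each day from 5 d on.

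Cycs, which also takes part in apoptosis once it leaves mitochondria, had 204, 200, 162 and 175 FPKM at 0 d. It had 123, 105, 91.0 and 100 at 3 d and 84.5, 74.0, 87.5 and 77.4 at 28 d. The groups did not overlap, and the change was -0.82 ± 0.10 at 3 d and -1.18 ± 0.10 at 28 d (limma adjusted p = 3.55e-08 and 3.22e-11). The 28 d mean was 43.6% of the 0 d mean.

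**Figure D4:**
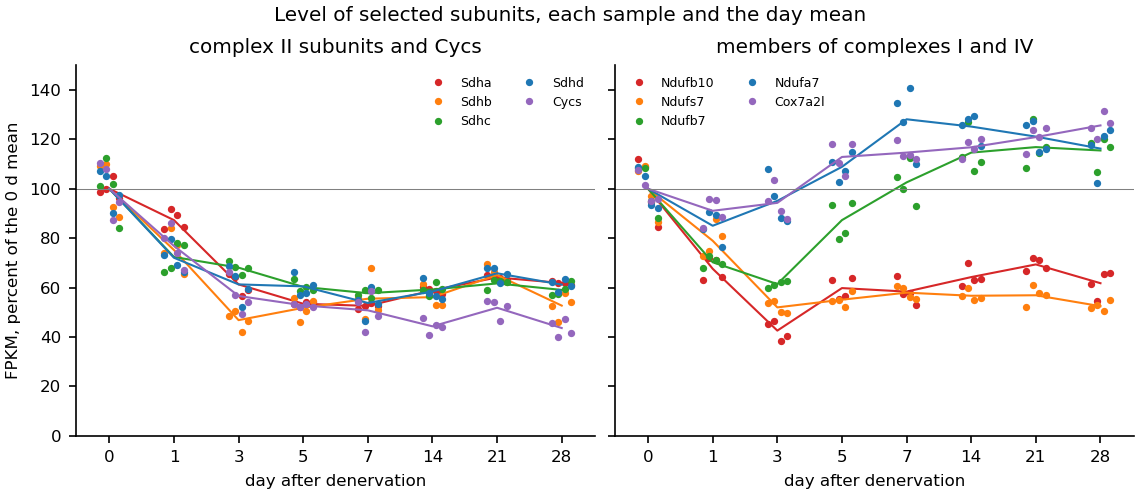
FPKM of single subunits as a percentage of their own 0 d mean in each sample (points) with the mean of each day (lines), by day, for complex II and Cycs on the left and for 4 complex I subunits and Cox7a2l on the right. The points of complex II and Cycs stay below those of 0 d from 3 d on, while Ndufb7 goes from 61.4% at 3 d to 116% at 28 d and Ndufb10 from 42.6% to 61.8%.

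Within complex I the subunits with the lowest mean change were Ndufs7, Ndufb10 and Ndufa8. Ndufs7, a core subunit that carries an iron-sulphur cluster, had 130, 132, 117 and 105 FPKM at 0 d, 65.1, 65.8, 60.7 and 60.2 at 3 d, and 62.5, 63.9, 61.0 and 66.7 at 28 d. The means of both days were thus close, at 52.0% and 52.5% of the reference. Ndufb10, an accessory subunit of the membrane arm, had 203, 198, 172 and 153 FPKM at 0 d and 81.9, 84.2, 70.0 and 73.4 at 3 d. Its change of -1.22 ± 0.08 at 3 d (limma adjusted p = 6.21e-13) was the lowest of complex I, and at 28 d it was -0.69 ± 0.08. Ndufa8, an accessory subunit on the intermembrane side, changed by -0.74 ± 0.08 at 3 d and by -0.87 ± 0.08 at 28 d.

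Of the 7 conserved core subunits of complex I encoded in the nucleus, 5, 6, 1 and 4 fell on 3, 14, 21 and 28 d, and none rose on these days. Their median was -0.76 at 3 d and -0.63 at 28 d, beside -0.71 and -0.42 for all of complex I. After median-ratio scaling 5, 6, 7 and 6 of the 7 fell on the same days, and without sample a the 3 d count was 5 under both scalings. The shares of all genes that fell on these days were 6.03%, 3.83%, 3.93% and 4.1% as deposited. After scaling they were 9.79%, 7.57%, 7.3% and 8.03%. Ndufs3, also a core subunit, scattered from 0.949 to 9.86 FPKM over the samples, and its standard error was 0.40.

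At the other end of complex I stood Ndufa7 and Ndufb7, both accessory subunits. Ndufa7 had 57.1, 55.1, 49.0 and 48.3 FPKM at 0 d and 70.5, 66.6, 73.7 and 57.7 at 7 d, all above the reference. Its log2 fold change of 0.35 ± 0.08 at 7 d was under the fold threshold and was -0.03 after median-ratio scaling. Ndufb7 had 29.4, 29.4, 25.8 and 23.8 FPKM at 0 d and 16.2, 16.5, 16.9 and 17.0 at 3 d, a fall of -0.67 ± 0.07 (adjusted p = 3.39e-09). At 28 d it had 32.1, 28.9, 32.5 and 31.7, in the range of 0 d or above it, with a change of 0.20 ± 0.07 that turned to -0.16 after scaling.

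In complex III the lowest members were Cyc1, Uqcrc1 and Uqcrfs1. Cyc1, the cytochrome c1 that passes electrons to cytochrome c, had 165, 176, 166 and 134 FPKM at 0 d, 68.2, 81.6, 69.9 and 72.0 at 3 d, and 94.2, 93.3, 82.5 and 98.9 at 28 d. It was lower in every later sample than in any 0 d sample, and changed by -1.12 ± 0.08 at 3 d (limma adjusted p = 4.87e-13) and by -0.79 ± 0.08 at 28 d. Uqcrfs1, the Rieske iron-sulphur protein, changed by -0.67 ± 0.06 at 3 d and by -0.61 ± 0.06 at 28 d. Uqcrc1, a core protein, had 23.9, 31.2, 21.2 and 35.1 FPKM at 0 d and 16.5, 17.9, 28.6 and 16.2 at 28 d, which overlapped, and its standard error was 0.25. Uqcrb and Uqcr11, small subunits, were the highest by mean change. Uqcrb was between -0.40 and -0.27 on all 7 days as deposited and was not called, whereas after median-ratio scaling it fell on 5 of the 6 days from 3 d on. Uqcr11 went from -0.87 ± 0.10 at 3 d to -0.28 ± 0.10 at 28 d.

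Complex IV held both the largest decreases and the single increase called against 0 d in the values as deposited. Cox7a1 (ENSMUSG00000074218, chr7:30184144-30186078), the heart and skeletal muscle isoform of subunit 7a, had 247, 256, 209 and 206 FPKM at 0 d and 133, 171, 156 and 145 at 1 d. It had 70.8, 74.7, 59.1 and 60.5 at 3 d, 62.7, 58.3, 50.7 and 62.8 at 5 d, and 79.7, 66.3, 71.3 and 87.9 at 28 d. The days did not overlap with 0 d, and the mean of 5 d was 25.5% of the reference. The change was -1.95 ± 0.10 at 5 d and -1.58 ± 0.10 at 28 d (limma adjusted p = 4.13e-15 and 3.59e-13).

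Cox8b (ENSMUSG00000025488, chr7:140898945-140900446), the muscle isoform of subunit 8, had 636, 598, 500 and 615 FPKM at 0 d. It had 258, 177, 209 and 214 at 3 d and 304, 282, 328 and 321 at 28 d, with no overlap. It changed by -1.45 ± 0.11 at 3 d and by -0.92 ± 0.11 at 28 d. Cox5a, a subunit on the matrix side, had 83.7, 89.5, 82.8 and 70.8 FPKM at 0 d and 43.2, 44.6, 38.8 and 36.5 at 7 d, its lowest day, at 49.9% of the reference.

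Cox8a (ENSMUSG00000035885, chr19:7215153-7217616), the isoform of subunit 8 found in most tissues, went the other way. It had 52.6, 49.7, 47.9 and 41.6 FPKM at 0 d, 65.3, 76.1, 72.4 and 68.6 at 3 d, and 81.9, 81.8, 91.6 and 94.5 at 28 d. Every sample from 3 d on was above every 0 d sample. The change was 0.85 ± 0.09 at 28 d (limma adjusted p = 1.13e-08) and 0.49 after median-ratio scaling, where it was not called at 1.5-fold. Cox7a2l had 89.7, 84.6, 79.1 and 79.9 FPKM at 0 d and 104, 100, 110 and 105 at 28 d. Its change of 0.33 ± 0.05 was below the fold threshold and was -0.04 after scaling.

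The muscle isoforms were then set against their partners within each sample, a ratio that does not depend on the scaling between samples beyond the pseudocount. Cox7a1 made up 57.3% ± 1.58 (SD, n = 4) of the summed FPKM of Cox7a1 and Cox7a2, the isoform of other tissues, at 0 d and 57.1% ± 1.66 at 1 d. At 3 d it made up 37.8% ± 1.81, at 5 d 32.8% ± 1.51 and at 28 d 39.9% ± 1.76. Cox7a2 itself was at 63.8% of its 0 d mean at 3 d and at 67.2% at 28 d. At 1 d both isoforms were lower and their ratio had hardly moved, whereas from 3 d on the muscle isoform was the lower of the pair relative to 0 d.

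Cox8b made up 92.4% ± 0.987 of the summed FPKM of Cox8b and Cox8a at 0 d and 88.7% ± 2.07 at 1 d. It made up 74.9% ± 4.09 at 3 d and 77.9% ± 0.690 at 28 d, so it stayed the main isoform of subunit 8. Cox6a2, the muscle isoform of subunit 6a, made up 95.5% ± 0.604 of its sum with Cox6a1 at 0 d, then 91.7% ± 3.36 at 3 d and later, by 28 d, 94.0% ± 1.06. Cox6a1 ranged from 41.3 to 55.5 FPKM at 0 d and from 31.8 to 69.2 at 3 d.

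An exact two-sided permutation test of the mean log2 ratio set 12 samples, those of 14, 21 and 28 d, against the 4 of 0 d, with p adjusted over these 3 pairs. The Cox8b to Cox8a ratio went from 3.59 ± 0.20 to 2.01 ± 0.23, a difference of -1.57, and the Cox7a1 to Cox7a2 ratio from 0.42 ± 0.09 to -0.60 ± 0.15, a difference of -1.03 (exact p = 0.000549, the smallest that 1820 regroupings allow, and adjusted p = 0.000824 for each). The Cox6a2 to Cox6a1 ratio went from 4.37 ± 0.20 to 3.94 ± 0.33, a difference of -0.43 (exact p = 0.0308, adjusted p = 0.0308). This last call rests on single 0 d samples, since without sample 2 or sample 4 of 0 d the adjusted p was 0.0945 or 0.0813.

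**Figure D5:**
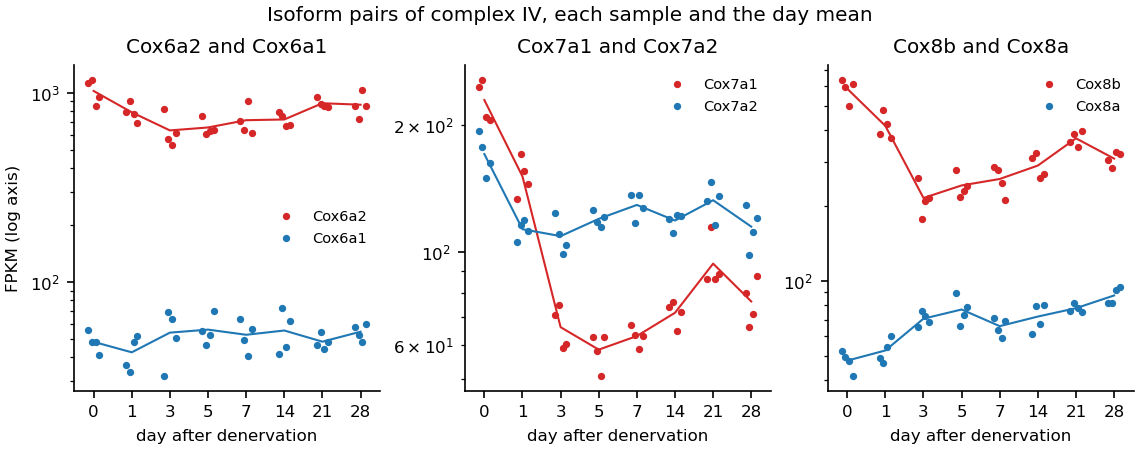
FPKM on a log axis of the muscle isoform (red) and its partner (blue) for 3 complex IV subunits, with each sample as a point and the mean of each day as a line, by day. Cox8b and Cox8a approach each other after 0 d, Cox7a1 crosses below Cox7a2 between 1 and 3 d, and Cox6a2 and Cox6a1 stay far apart.

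The remaining isoform pairs held a minor partner at low level. Cox4i2, the isoform of subunit 4 known from lung, had between 2.58 and 4.17 FPKM at 0 d and between 0.779 and 2.12 at 3 d, and fell by 0.94 on the log2 scale at 3 d. Cox4i1, the main isoform, had 183, 187, 173 and 139 FPKM at 0 d and 98.9, 112, 97.3 and 99.6 at 3 d. Cox6b2, an isoform known from testis, had at most 1.18 FPKM in any sample, beside between 229 and 402 for Cox6b1, and was not called on any day with the pseudocount of 1. Its mean was 217% of the 0 d mean at 5 d and 232% at 14 d, with samples that overlapped 0 d. The voom fit and a pseudocount of 0.1, which compress low levels less, called it higher on these days, with 1.14 and 1.29 in the voom fit (adjusted p = 0.0291 and 0.0121), from 2 to 22 fragments a sample over all days. Ndufa4, named with complex I but known as a part of complex IV, changed by -0.50 ± 0.08 at 3 d and by -0.62 ± 0.08 at 28 d. Its relative Ndufa4l2 had between 4.92 and 12.7 FPKM and changed by -0.70 ± 0.14 at 3 d and by -0.47 ± 0.14 at 28 d.

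Steps of the time course that leave the 0 d samples out were tested in the same limma fit. From 1 to 3 d, 9 subunits fell and none rose (3.93% and 6.63% of all genes), and 1 was higher at an unadjusted p under 0.05 while the voom fit called none higher. These were Cox7a1 (-1.18 ± 0.10), Cox8b (-0.96 ± 0.11), Cyc1 (-0.72 ± 0.08), Cox4i2, Sdhb, Ndufb10, Ndufv3, Ndufs1 and Ndufs7. Without sample a of 3 d the count was 10. With no fold threshold 39 were lower and 1 higher (13.7% and 17.2%). From 7 to 14 d and from 14 to 28 d no subunit was called in either direction, beside 0.258% of all genes called lower and 0.376% higher over the first step and 0.471% and 0.512% over the second. At an unadjusted p under 0.05, 11 were higher and none lower over the first of these steps and 6 higher and 1 lower over the second, and the voom fit called none. With no fold threshold the single call was a higher Sdha at 14 d than at 7 d, beside 1.18% of all genes higher and 1.36% lower, and none was called from 14 to 28 d (1.6% higher and 2.2% lower).

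From 3 to 28 d, a comparison added after the values were seen, 6 subunits rose and none fell (7.46% and 4.54% of all genes), 3 were lower at an unadjusted p under 0.05, and the voom fit called 7 higher and none lower. The share of the subunits that rose was close to that of all genes, so the 6 calls do not set the subunits apart. Without sample a of 3 d the count was 8, or 11.8% of the subunits beside 6.12% of all genes. The 6 were Ndufv3 (0.89 ± 0.09), Ndufb7 (0.87 ± 0.07), Ndufa13 (0.75 ± 0.09), Ndufb3 (0.74 ± 0.08), Ndufa2 (0.64 ± 0.10) and Uqcr11 (0.59 ± 0.10). Ndufv3 had 27.0, 28.7, 22.5 and 25.0 FPKM at 0 d, 12.3, 11.4, 11.3 and 13.0 at 3 d and 23.4, 21.3, 25.4 and 22.5 at 28 d, so the last day overlapped the reference again. After median-ratio scaling 4 rose (Ndufv3, Ndufb7, Ndufa13 and Ndufb3) and 1 fell (5.99% and 5.62% of all genes). The share of the subunits that rose was again close to that of all genes. With no fold threshold 36 subunits were higher at 28 d than at 3 d and 3 were lower, Cycs and Sdhc among them (23.9% and 12.5%).

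Other genes of oxidative phosphorylation were read from the same fit. Of 16 nuclear ATP synthase subunits, 10 fell and none rose at 3 d (median -0.59) and 3 fell and none rose at 28 d (median -0.41), whereas after median-ratio scaling 13 and 12 fell (medians -0.87 and -0.76). Of the 13 subunits encoded by the mitochondrial genome, 7 fell at 3 d (median -0.65), 12 at 7 d (median -1.10) and 9 at 28 d (median -0.65), and none rose on these days, and after scaling 12 fell on each of them. Without sample a, 11 ATP synthase and 8 mitochondrially encoded subunits fell at 3 d, beside 5.58% of all genes. The assembly factors, which help to build the complexes without staying in them, were nearer to the typical gene. For complex I, 4 of 16 fell and none rose at 3 d (median -0.28), and 2 fell and 1 rose at 28 d (median -0.04). For complex IV, 3 of 18 fell and 3 rose at 3 d (median -0.18), and 4 fell and 1 rose at 28 d (median 0.02). After scaling, 7 and 5 fell at 3 and 28 d for complex I (medians -0.50 and -0.41) and 6 and 6 for complex IV (medians -0.43 and -0.31). For complex II 1 of 4 fell at 3 d and for complex III 1 of 6 fell and 1 rose, and none of either was called at 28 d. For the 11943 genes that averaged an FPKM of 1 or more, the median was 0.20 at 3 d and 0.30 at 28 d. Beside these counts, 6.03%, 4.1% and 4.1% of all genes tested fell at 3, 7 and 28 d, and 13.2%, 15.4% and 14.2% rose. After scaling, 9.79%, 8.14% and 8.03% fell. The small counts of the short lists were not tested against these shares.

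Counting limits touch a few subunits. Exons of 23 of the 68 overlap another gene in the annotation, and 3 of them (Ndufb2, Ndufb8 and Ndufb9) overlap one on the same strand. Whether counting used the strand is not given in the sources used here, so reads of such pairs cannot be told apart. The fewest fragments a sample were those of Cox6b2 (2 to 22), Cox4i2 (9 to 49) and Ndufb2 (15 to 51), so their changes rest on little, including the decrease of Cox4i2 called on each day from 3 d on.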

How the data were processed

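RNA of GAS muscle was measured in 32 samples, 4 for each of 8 times after sciatic nerve transection. The authors deposited FPKM values, 1 per gene and sample, whose columns name no animal. All but 4 of the columns name a day, and these 4 were taken as the 0 d group by elimination. The submitters' processing notes list CASAVA, HISAT2 2.1.0 and DESeq2 and the build GRCm38, without their roles; the annotation and the counter are not given in the sources used here. Gene names and exon lengths came from GENCODE mouse release 21, which matched 33356 of 33397 genes. FPKM multiplied by length and total gave whole fragments (within 0.05) for 99.3% to 99.4% of the values under 200 fragments, from which depth was taken. Genes reaching 0.1 FPKM in 4 samples or more were tested on log2(FPKM + 1) with limma 3.58.1 (variance trend, R 4.3.3), in 1 fit of all groups, with Benjamini-Hochberg adjustment over all genes tested. A gene was called at an adjusted p under 0.05 and at least 1.5-fold. The step was tested on simulated data. Isoform ratios were compared by exact permutation.

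Genes were named by a rule. In complexes I, III and IV it took, among members with a mean FPKM of at least 1, the 3 with the lowest and the 2 with the highest mean of the 7 fold changes. All Sdh genes, Cyc1, Cycs and the complex IV isoforms were added, and members named outside it are given as such or belong to counts. Ndufs6b, Ndufa11b, Cox6c2, Ndufb4c and Ndufb1-ps match by name but are not protein-coding and were left out. Of the 68 subunits, 1 is kept in all counts and medians but is not reported here by name. The members and lists were chosen with earlier results of these data known. Alternatives covered the pseudocount, the filter, the scaling, the fold threshold, the samples in the fit, a voom fit of recovered fragments and leaving out each sample. The rest, including the enumeration of all regroupings for the permutations, was done in Python 3.11.15 with numpy 2.4.6.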

Additional observations from a re-analysis of the deposited data

Results flagged for a closer look

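In 11 of 232 groups of 4 samples of the named subunits, 1 sample stood far from the other 3 by Dixon's criterion, which flags about 1 in 20 groups by chance. At 5 d, Cyc1 had 99.0 FPKM in 1 sample and between 85.5 and 86.7 in the others. Uqcrc1 had 13.0 in 1 sample of 7 d (others 20.0 to 21.1) and 28.6 in 1 of 28 d (others 16.2 to 17.9). At 21 d single samples stood apart for Uqcrfs1 (242, others 261 to 264), Uqcr11 (194, others 167 to 172) and Cox7a1 (114, others 86.1 to 88.5), the last 2 in the same sample. At 3 d Uqcrb had 132 in sample a (others 101 to 105) and Cox4i1 had 112 in another sample (others 97.3 to 99.6). Cox6b2 had 0.572 in 1 sample of 1 d (others 0.273 to 0.293) and 0.530 in 1 of 14 d (others 0.923 to 0.987), and Ndufa4l2 had 12.7 in 1 sample of 0 d (others 9.20 to 9.54).

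The level against 0 d differed between days for 9 subunits between 1 and 3 d, all lower at 3 d (3.93% of all genes). It differed for 6 between 3 and 28 d, all higher at 28 d (7.46% of all genes). The 0 d samples cancel in such a difference, so these are the step calls given above and not a separate test. The second share of the 68 subunits is close to that of all genes, and this comparison was added after the values were seen.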

How the results depend on the processing

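No paired analysis was possible because the columns of the table carry no replicate number that ties them to a sample of another group. Of 3038 single-gene values recomputed, 2830 kept their direction and their side of the threshold, 40 lost the call, 129 gained it and 39 changed sign.

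Median-ratio scaling gave 39, 59, 54, 46 and 52 lower subunits at 1, 7, 14, 21 and 28 d, 0 higher ones at 5, 21 and 28 d, and 1 lower from 3 to 28 d. Scaling without the mitochondrial genome gave 5, 46, 41, 23 and 32 lower at 1, 7, 14, 21 and 28 d (3.04%, 5.35%, 5.02%, 4.87% and 5.05% of all genes) and 0 higher at 5 d (11.6%). With no fold threshold, 54, 56, 52, 47 and 50 were lower at 1, 7, 14, 21 and 28 d and 1, 3, 3, 5, 4 and 4 higher at 3, 5, 7, 14, 21 and 28 d. That setting gave 39 lower and 1 higher from 1 to 3 d, 1 higher from 7 to 14 d, and 36 higher and 3 lower from 3 to 28 d. The voom fit and a pseudocount of 0.1 each gave 2 higher subunits at 5 d (25.7% and 25.3% of all genes) and 1 at 14 d (27% and 26.4%), Cox6b2 being the added one. All counts kept within 1.5 times under a filter at an FPKM of 1, no filter and fits of only the groups compared.

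Leaving out 1 sample at a time gave 1 to 5 lower subunits at 1 d, 42 to 48 at 3 d, 35 to 44 at 5 d, 22 to 35 at 7 d, 17 to 30 at 14 d, 10 to 17 at 21 d and 17 to 26 at 28 d. Higher counts ranged from 0 to 1 at 3 d and at 14 d, and from 3 to 28 d there were 4 to 8 higher and 0 to 1 lower. The lower count at 1 d, 2 with all samples, was 1 without sample a of 1 d or without sample 1 or 2 of 0 d, 4 without sample b of 1 d or 3 of 0 d, and 5 without sample c of 1 d or 4 of 0 d. The Cox6a2 to Cox6a1 difference ranged from -0.51 to -0.36, and lost its call without sample 2 (-0.36) or 4 (-0.39) of 0 d.

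Some values changed sign, and the cause was not tested beyond the shift of the typical gene given for the scaling. Among them were rises as deposited that lay clear of 0 d, such as 0.33 ± 0.05 for Cox7a2l at 28 d and 0.35 ± 0.08 for Ndufa7 at 7 d. After median-ratio scaling Cox7a2l was at -0.22, -0.19, -0.17, -0.035 and -0.044 at 5, 7, 14, 21 and 28 d, and Ndufa7 at -0.27, -0.035, -0.070, -0.032 and -0.16 on the same days. Ndufb7 was at -0.34, -0.19, -0.080 and -0.16 at 7, 14, 21 and 28 d, and Cox8a at -0.077 at 1 d. Cox6a1 was at -0.16, -0.19, -0.27, -0.22, -0.30 and -0.19 at 3, 5, 7, 14, 21 and 28 d, and Cox6b2 at -0.0042 at 7 d. Scaling without the mitochondrial genome gave -0.027 and -0.097 for Cox6a1 at 7 and 21 d, -0.098 for Ndufb7 at 7 d and -0.0069 for Ndufa7 at 5 d. Cox6b2 at 1 d was 0.051 in the voom fit and 0.038 at a pseudocount of 0.1. With single samples left out, Cox6b2 ranged from -0.078 to 0.11 at 1 d and from -0.11 to 0.074 at 3 d, Cox6a1 from -0.030 to 0.34 at 3 d and from -0.063 to 0.076 at 21 d, and Ndufb7 from -0.020 to 0.081 at 7 d. Depth limits mainly Cox6b2, Cox4i2 and Ndufb2, each with at most 51 fragments a sample.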
